A study of Bos taurus with 18 samples.

Results

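The theca, the vascular and hormone-producing layer that surrounds a growing follicle, was compared with the tunica albuginea, the dense collagenous layer beneath the surface of the ovary, in cattle. The comparison used the 10 arrays titled as theca of small healthy follicles (6 arrays) or as tunica albuginea (4 arrays), out of 18 arrays in the series, and all 26773 transcript clusters of each array. A transcript cluster is the set of probes that reads 1 transcribed region. All ovaries came from non-pregnant cows killed at an abattoir. For theca, the layer was dissected from antral follicles below 5 mm in diameter that were classed as healthy, with 1 follicle of 1 animal behind each array, and RNA was extracted with the RNeasy mini kit. For tunica albuginea, tissue was cut by laser from 10 µm sections of frozen cortex stained with cresyl violet, RNA of different animals was pooled for each array, and the RNAqueous-Micro kit was used. The other 8 arrays held interstitial stroma (4) and stroma near follicles (4), which were collected by laser and pooled in the same way as tunica albuginea. All RNA was treated with DNase, amplified with the Ovation Pico WTA V2 system and labelled with biotin. Compartment, way of collection, pooling and RNA kit all changed together between theca and tunica albuginea and cannot be told apart here. How many animals went into each pool, and whether any animal entered several pools, is not given in the sources used here.

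In a follicle, theca cells respond to luteinizing hormone by turning cholesterol into androgens, which the granulosa cells on the other side of the follicular basement membrane convert to oestrogens. The theca carries the capillaries of the follicle wall, and the granulosa layer has none of its own. The tunica albuginea is built mainly by fibroblasts, which lay down bundles of fibrillar collagen coated with small proteoglycans, and it lies directly under the surface epithelium.

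Values are log2 signals, so that a difference of 1 is a 2-fold difference. Each array had a median of 4.1, and the table gives no detection call, so that a value below 4.1 may hold much background and a difference from such a group may understate the true one. Differences are theca minus tunica albuginea with the moderated standard error (SE) of limma, and "higher" or "lower" means an adjusted p below 0.05 over all clusters. By this rule 9207 clusters (34.4%) differed, with 4372 higher (16.3%) and 4835 lower (18.1%) in theca. Every count of list members below is to be read beside these shares of 16.3% and 18.1%. Differences of at least 2-fold were more often upward, with 1772 higher and 1142 lower, and at least 8-fold differences numbered 123 and 61. With arrays centred on the brighter clusters, 35.3% of calls were higher in place of 47.5%, and the 2-fold counts were nearly level, with 1494 higher and 1425 lower. After cyclic loess the 2-fold counts were 1625 and 1231. When the dimmest clusters were left out, 56.3% of calls were higher. The median difference of all clusters was -0.05, and moved to -0.15 with arrays centred on the brighter clusters. The 6 theca values and the 4 tunica albuginea values did not overlap at 5680 clusters (21.2%). The first principal component of these 10 arrays held 57.7% of the variance and separated both groups. Arrays correlated at 0.956 to 0.974 with others of their own compartment, and at 0.882 to 0.917 with those of the other. Because tunica albuginea, interstitial stroma and stroma near follicles were all laser-captured, the difference between tunica albuginea and the mean of both stromas is given beside many genes. In that comparison 527 clusters (1.97%) were higher and 463 (1.73%) lower in tunica albuginea. Without tunica albuginea array 3 these counts were 315 and 235, and without array 1 the lower count was 305. The same tunica albuginea arrays enter both comparisons, so the values are set side by side only.

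**Figure D1:**
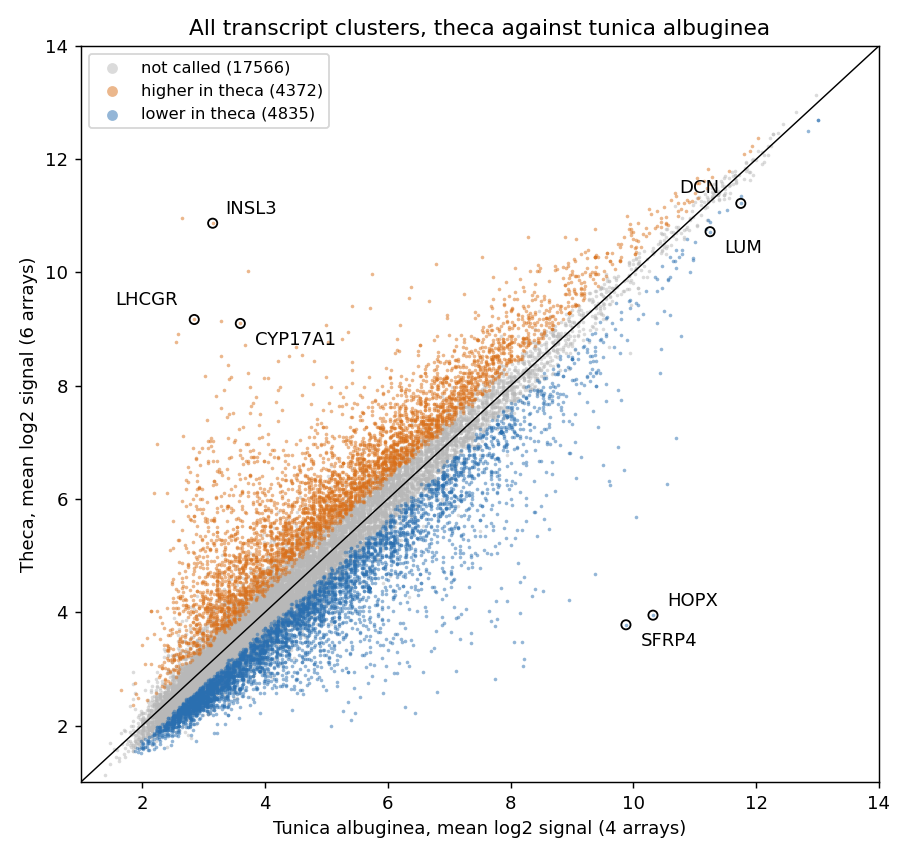
Mean log2 signal of every transcript cluster in tunica albuginea (x axis, 4 arrays) and theca (y axis, 6 arrays), with clusters higher in theca in orange, lower in blue and not called in grey. INSL3, LHCGR and CYP17A1 lie far above the diagonal at a low tunica albuginea signal, SFRP4 and HOPX far below it, and DCN and LUM close to it at a high signal in both layers.

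The defining genes of theca followed its label, and those of a collagenous layer did so only in part. LHCGR, INSL3, CYP11A1, HSD3B1 and CYP17A1 were all higher in theca, and no theca value of these 5 genes overlapped with tunica albuginea. In tunica albuginea the defining fibroblast genes DCN and LUM were higher, COL1A1 did not pass, and COL1A2 and COL3A1 were lower than in theca. Against the laser-captured stroma, in contrast, tunica albuginea had more COL1A1 (1.80, adjusted p = 0.00012), COL1A2 (1.44, adjusted p = 0.00028), LUM (0.86, adjusted p = 0.00043) and DCN (0.46, adjusted p = 0.012). COL3A1 did not pass against that stroma (0.39, adjusted p = 0.34). Here and below, tissue was measured in bulk, so that fewer cells of a type and less RNA per cell cannot be told apart.

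The receptor and the peptide hormone of theca cells were far apart between the layers. LHCGR, the receptor for luteinizing hormone, ranged from 8.4 to 9.6 (median 9.25) on the theca arrays and stood at 2.8, 2.9, 3.0 and 2.7 in tunica albuginea. Its difference was 6.32 ± 0.17 (SE, adjusted p = 4.4e-14). INSL3, a peptide hormone of theca and Leydig cells, ranged from 10.5 to 11.2 (median 10.9) in theca and read 3.5, 3.2, 3.2 and 2.7 in tunica albuginea, a difference of 7.72 ± 0.20 (adjusted p = 2.2e-14). Both genes were at or near the floor of the array in all 4 tunica albuginea samples and high in all 6 theca samples.

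The enzymes that lead from cholesterol to androgen followed. CYP11A1, which cuts the cholesterol side chain in mitochondria, was within 10.1 to 10.2 on 5 theca arrays and 9.2 on theca array 6, against 4.3, 3.5, 4.1 and 3.0 in tunica albuginea (6.29 ± 0.28, adjusted p = 2e-11). HSD3B1, which makes progesterone from pregnenolone, ranged from 8.1 to 9.3 (median 9.05) in theca, against 2.9, 2.6, 2.2 and 2.6 (6.34 ± 0.20, adjusted p = 1.4e-13). CYP17A1, the enzyme that commits steroids to androgens, was the most variable of these among follicles. It read 10.3, 7.2, 9.7, 10.0, 9.6 and 7.8 on theca arrays 1 to 6 and 3.5, 3.5, 3.7 and 3.7 in tunica albuginea, a difference of 5.50 ± 0.45 (adjusted p = 5.6e-08). Its SD was 1.28 in theca. The SD of 0.12 in tunica albuginea comes from pools of animals at a signal below 4.1 and cannot be compared with it. CYP19A1, the aromatase of granulosa cells, which theca cells are not known to use, was below 4.1 on all 10 arrays and did not pass (0.33 ± 0.22, adjusted p = 0.26).

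**Figure D2:**
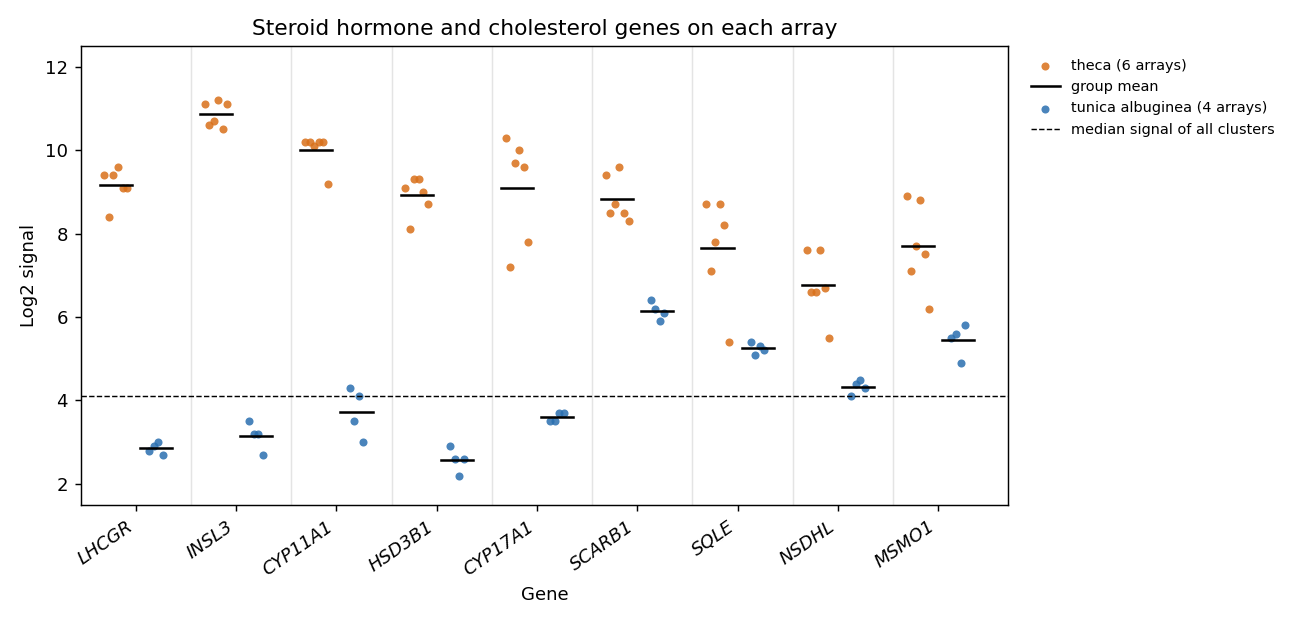
Log2 signal on each array (points) of 9 genes of steroid hormone production and cholesterol supply in theca (orange, 6 arrays) and tunica albuginea (blue, 4 arrays), with bars at the group means and a dashed line at the median signal of 4.1. Theca points of LHCGR, INSL3, HSD3B1 and CYP11A1 lie close together above 8, whereas those of CYP17A1 and SQLE spread over about 3 log2 units.

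The electron donors of these P450 enzymes differed by less. FDX1, the mitochondrial ferredoxin that feeds CYP11A1, was higher by 1.94 ± 0.22, CYB5R3 by 2.19 ± 0.19 and CYB5A, cytochrome b5, which favours androgen production by CYP17A1, by 1.31 ± 0.14, while POR did not pass (0.25 ± 0.21). Among transcription factors of steroid cells, NR5A1 and NR5A2 were higher (1.08 and 1.14) and GATA4 did not pass (0.06). The NR5A2 means were below 4.1 in both layers (4.07 and 2.92), and its arrays overlapped between the layers. NR5A2 is also in the list of granulosa cell markers used below. Like FSHR in that list, it was highest on theca arrays 1, 3 and 6 (4.9, 4.3 and 4.6). Which cells carried it was not tested. NR4A1, an orphan receptor induced quickly by hormones and by stress, went the other way, with 4.1 to 4.9 in theca and 7.6, 7.8, 9.0 and 9.0 in tunica albuginea (-4.07 ± 0.31, adjusted p = 2.5e-08). Its relative NR4A2 did the same (-2.97 ± 0.28), as did NR2F2 and GATA6 by less (-0.70 and -0.65). Of 28 measured genes of the steroidogenesis list, 14 were higher in theca (background 16.3%) and 6 lower, with a median difference of 0.65.

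Cholesterol supply was higher in theca along most of the route. Of 15 measured enzymes of cholesterol synthesis, 13 were higher and none lower, with a median of 0.98. NSDHL was higher by 2.44 ± 0.33, SQLE, the squalene epoxidase, by 2.40 ± 0.46 and MSMO1 by 2.25 ± 0.39. These 3 enzymes varied among follicles in the same way. SQLE read 8.7, 7.1, 7.8, 8.7, 8.2 and 5.4 on theca arrays 1 to 6 and 5.4, 5.1, 5.3 and 5.2 in tunica albuginea. MSMO1 and NSDHL were likewise highest on theca arrays 1 and 4 and lowest on array 6. Theca array 6 thus overlapped with tunica albuginea for SQLE, and the other 5 follicles did not. SCARB1, the receptor that takes up cholesterol esters from high-density lipoprotein, ranged from 8.3 to 9.6 (median 8.6) in theca and stood at 6.4, 6.2, 5.9 and 6.1 in tunica albuginea (2.68 ± 0.23, adjusted p = 1.2e-07). TSPO, a protein of the outer mitochondrial membrane, was lower in theca (-0.82 ± 0.20), and so was LPL, the lipoprotein lipase (-1.79 ± 0.21). Over the whole list of 25 genes, 18 were higher and 2 lower. The lower genes were 1 regulator and 1 gene of uptake and transport. The lower count was 1 without theca array 1, 2 or 6 or tunica albuginea array 1, 3 or 4.

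Several genes outside these lists were as well separated. GSTA1, a glutathione transferase abundant in steroid-producing tissue, ranged from 10.6 to 11.4 (median 10.95) in theca and was 3.0, 2.6, 2.3 and 2.7 in tunica albuginea, the largest difference of any named gene (8.32 ± 0.29, adjusted p = 8.1e-13). It was also lower in tunica albuginea than in the laser-captured stroma (-2.79, adjusted p = 1.5e-05), where stroma near follicles had a mean of 6.15. OTOS (6.23 ± 0.18), the chemokine CXCL14 (5.88 ± 0.22), the metalloprotease-like ADAMDEC1 (5.24 ± 0.38), the cardiac troponin subunit TNNI3 (5.14 ± 0.19), MAL2, a protein of membrane traffic (4.97 ± 0.28), and KCNIP1, a potassium channel partner (4.70 ± 0.17), followed. TNNI3 resembled GSTA1 in that tunica albuginea was also below the stroma (-1.30, adjusted p = 0.00031), with a mean of 4.97 near follicles. OTOS, CXCL14 and KCNIP1 lay below 4.1 in every laser-captured compartment.

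Markers of granulosa cells, the layer just inside the theca, were also more often higher than lower in theca. Of 15 measured markers 8 were higher and 2 lower (1 lower without tunica albuginea array 4), and the mean log2 signal over the list ranged from 5.26 to 5.87 on theca arrays and from 4.60 to 4.74 in tunica albuginea. INHA, the inhibin alpha subunit, read 7.1 to 7.8 (median 7.6) in theca and 4.4, 3.4, 3.3 and 3.9 in tunica albuginea (3.77 ± 0.22, adjusted p = 9.8e-10). FST, the activin antagonist follistatin (3.66 ± 0.18), INHBA, the activin A subunit (2.18 ± 0.33), and KITLG (2.06 ± 0.21) were higher too. FSHR, the follicle-stimulating hormone receptor that marks granulosa cells, had 5.2, 3.4, 4.7, 4.1, 3.5 and 5.4 on theca arrays 1 to 6 and 3.6, 3.0, 3.2 and 3.1 in tunica albuginea, a difference of 1.16 ± 0.35 (adjusted p = 0.017). CDH2, N-cadherin, which is present in granulosa cells and in fibroblasts, was lower in theca (-2.27 ± 0.56, adjusted p = 0.0044), with 5.8, 3.3, 5.0, 3.2, 3.1 and 6.3 on theca arrays 1 to 6 and 6.2 to 7.3 in tunica albuginea. FSHR and CDH2 were both highest on theca arrays 1, 3 and 6. The markers with larger differences did not all share this order. INHA, like FSHR, was lowest on theca array 2, FST was lowest on array 4 (6.8), and INHBA and KITLG were lowest on array 6 (6.9 and 6.3). FOXL2 (2.85 and 3.12), CYP19A1 and INHBB (3.12 and 3.08) were below 4.1 in both layers and did not pass. The part of granulosa cells in the theca results was not tested.

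Blood vessel genes formed the second broad group. Of 25 measured endothelial markers, 20 were higher in theca and 1 lower, with a median difference of 1.35. PECAM1, an adhesion protein of endothelial junctions, ranged from 6.7 to 7.6 (median 7.05) in theca and was 3.8, 3.2, 3.4 and 3.2 in tunica albuginea (3.68 ± 0.28, adjusted p = 2.8e-08). CDH5, VE-cadherin, differed by 3.53 ± 0.38 and PTPRB, a phosphatase of vessel walls, by 3.52 ± 0.24. KDR, the main receptor for VEGF, ranged from 7.9 to 8.4 (median 7.95) in theca and was 3.7, 4.8, 4.9 and 5.7 in tunica albuginea (3.26 ± 0.28, adjusted p = 9e-08). VWF, the von Willebrand factor, differed by 1.77 ± 0.21. The list mean ranged from 5.42 to 5.81 in theca and from 4.01 to 4.18 in tunica albuginea, so that the groups did not overlap. In the laser-captured tissue alone, PECAM1 (-1.24, adjusted p = 0.013) and KDR (-1.65, adjusted p = 0.0011) were also lower in tunica albuginea than in stroma. CDH5 (-1.16, adjusted p = 0.086), PTPRB (-0.45, adjusted p = 0.36) and VWF (-0.41, adjusted p = 0.33) did not pass there. In that comparison 5 of the 25 markers were lower (beside 1.73% of all clusters) and 1 higher (beside 1.97%). ENG, endoglin, a TGF-beta co-receptor of endothelium and fibroblasts, was the exception in both comparisons: it was lower in theca (-1.10 ± 0.12) and higher in tunica albuginea than in stroma (1.09, adjusted p = 1.8e-05).

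The receptors and the ligands of vessel growth gave different counts. Of 8 receptors of the VEGF, angiopoietin and apelin families, 6 were higher and none lower, among them TEK, the angiopoietin receptor (2.47 ± 0.22), and APLNR, the apelin receptor (2.08 ± 0.30). Of 9 ligands, 2 were higher and 3 lower. VEGFD ranged from 4.5 to 5.6 (median 5.1) in theca and from 2.2 to 2.7 in tunica albuginea (2.65 ± 0.17). VEGFB ranged from 4.7 to 5.0 in theca and was 6.8, 7.6, 7.0 and 7.6 in tunica albuginea (-2.37 ± 0.15, adjusted p = 3.3e-09). VEGFA was lower in theca by less (-0.72 ± 0.21, adjusted p = 0.013), with 6.0 to 6.9 against 7.0 to 7.5, and its call was lost without tunica albuginea array 1 (-0.62, adjusted p = 0.05). Without that array 1 gene of the VEGF and angiopoietin list was lower.

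Pericyte and smooth muscle markers gave different counts. Of 8 pericyte markers 5 were higher in theca and 1 lower, whereas of 13 contractile genes of smooth muscle none was higher and 10 were lower. RGS5, a pericyte regulator of G protein signalling, stood at 8.0 to 8.5 in theca and at 3.7, 5.0, 2.7 and 3.5 in tunica albuginea (4.51 ± 0.47, adjusted p = 1.1e-06). ABCC9, a potassium channel subunit of pericytes, differed by 1.88 ± 0.24 and NOTCH3 by 1.75 ± 0.18. RGS5 and ABCC9 were also lower in tunica albuginea than in stroma (-2.04 and -1.39, adjusted p = 0.014 and 0.0015), and NOTCH3 did not pass there (-0.4, adjusted p = 0.25). On the contractile side, MYH11, smooth muscle myosin, ranged from 6.4 to 7.8 (median 7.3) in theca and was 9.7, 9.5, 9.3 and 9.2 in tunica albuginea (-2.14 ± 0.20, adjusted p = 3.7e-07). MYOCD, which switches on contractile genes, differed by -2.05 ± 0.28 and DES, desmin, by -1.83 ± 0.26. MYH11, MYOCD and DES did not differ detectably between tunica albuginea and the other laser-captured stroma (-0.24, -0.34 and -0.26, adjusted p from 0.59 to 0.67). Which cells carried these contractile genes was not tested.

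Through Notch signalling neighbouring vessel and mural cells act on each other. Of 15 Notch genes 8 were higher in theca (53.3%, beside 16.3% of all clusters) and 1 lower (6.67%, beside 18.1%). The ligand JAG1 ranged from 5.7 to 6.8 (median 6.4) in theca and from 3.3 to 4.0 in tunica albuginea (2.69 ± 0.24, adjusted p = 1.6e-07). The target genes HEYL (2.75 ± 0.17) and HES1 (2.63 ± 0.21) were higher and both were below 4.1 on every tunica albuginea array. NOTCH2 was lower in theca (-0.96 ± 0.13). HES1 and HEYL were also lower in tunica albuginea than in stroma (-1.59 and -0.76, adjusted p = 0.00012 and 0.011).

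The basement membrane was divided by chain. Theca had more signal for 12 of 22 genes and less for 5, and the median difference was 0.73. LAMA4, the laminin alpha chain of capillaries, ranged from 7.3 to 7.6 in theca and was 3.5, 3.9, 4.5 and 3.8 in tunica albuginea (3.58 ± 0.28, adjusted p = 4.1e-08). LAMB1 (2.37 ± 0.13), COL4A1, a chain of type IV collagen (1.96 ± 0.14), and LAMA2 (1.80 ± 0.35) were higher with it. LAMA3, the laminin alpha chain of epithelia, did the reverse, with 2.7 to 3.1 in theca and 5.2, 6.2, 6.2 and 6.8 in tunica albuginea (-3.18 ± 0.24, adjusted p = 2.3e-08). LAMB2 (-1.61 ± 0.13), the heparan sulfate proteoglycan perlecan, HSPG2 (-1.53 ± 0.13), and LAMA1 (-1.08 ± 0.19) were lower in theca. LAMA3, LAMB2 and HSPG2 were also higher in tunica albuginea than in the laser-captured stroma (1.5, 1.0 and 1.12), and LAMA1 did not pass there (0.33).

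The fibrillar collagens were not higher as a group in the collagenous layer. COL1A1, a chain of type I collagen, read 8.3, 8.6, 8.9, 8.3, 9.0 and 8.7 in theca and 8.5, 9.3, 9.6 and 8.8 in tunica albuginea, and the groups overlapped (-0.42 ± 0.23, adjusted p = 0.18). COL1A2, the other chain of that collagen, read 9.0 to 9.4 (median 9.25) in theca and 7.8, 8.5, 8.9 and 8.2 in tunica albuginea and was higher in theca (0.88 ± 0.21, adjusted p = 0.0029). COL3A1 (0.88 ± 0.20, adjusted p = 0.0027) and COL5A2 (1.04 ± 0.16, adjusted p = 8.4e-05) were higher too. COL24A1, a minor fibrillar chain, was the 1 member of 11 that was lower in theca, with 3.6 to 4.4 against 5.8, 5.3, 5.8 and 5.9 (-1.68 ± 0.18). In total 4 of 11 were higher, and the median difference was 0.28.

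**Figure D3:**
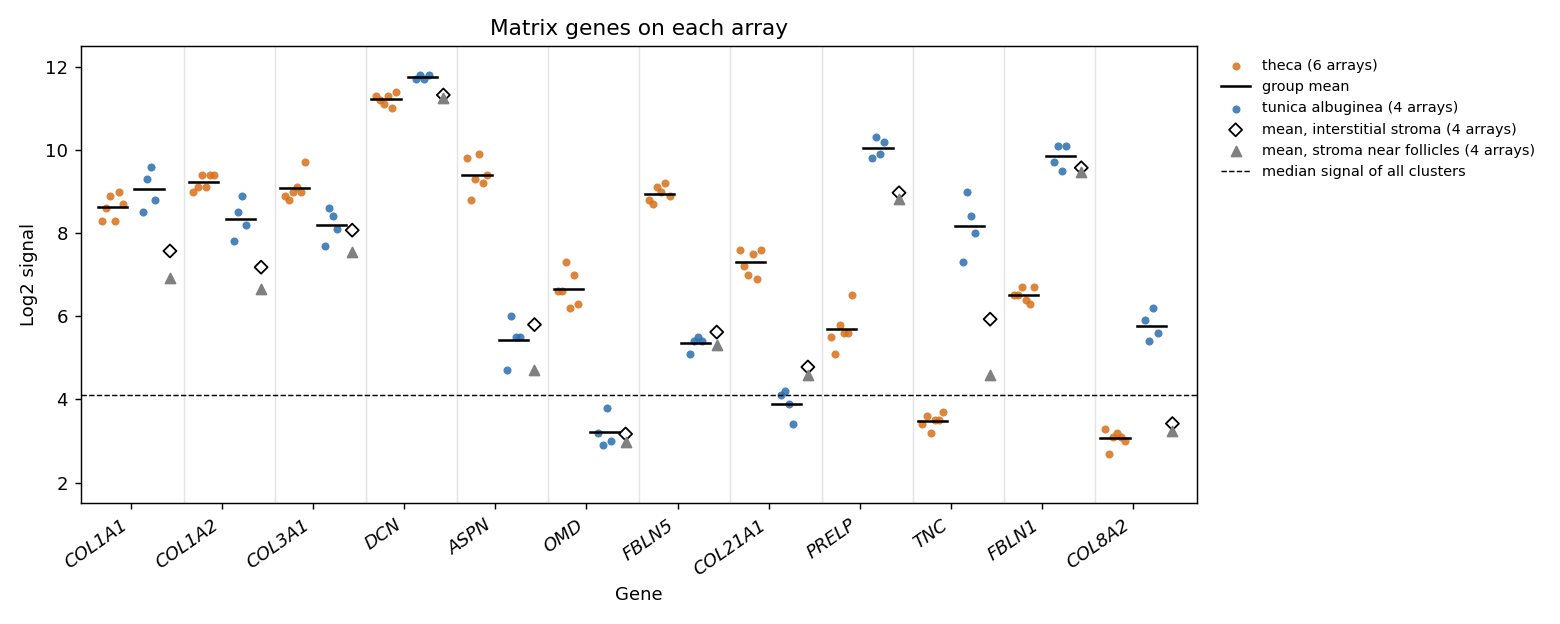
Log2 signal on each array (points) of 12 matrix genes in theca (orange, 6 arrays) and tunica albuginea (blue, 4 arrays), with bars at the group means, open diamonds at the means of interstitial stroma and triangles at those of stroma near follicles (4 arrays each), and a dashed line at the median signal of 4.1. COL1A1 overlaps between the layers, ASPN, OMD, FBLN5 and COL21A1 are high in theca, and PRELP, TNC, FBLN1 and COL8A2 are high in tunica albuginea.

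Other collagens told the layers apart in both directions. COL8A2 and COL8A1, the chains of a network-forming short-chain collagen, were lower in theca by 2.71 ± 0.18 and 2.44 ± 0.20 on the log2 scale. COL8A2 read 2.7 to 3.3 in theca and 5.9, 5.4, 6.2 and 5.6 in tunica albuginea, and it was also higher in tunica albuginea than in stroma (2.44, adjusted p = 4.4e-07). COL12A1, which lies on the surface of collagen fibrils, ranged from 8.9 to 9.2 on 5 theca arrays and was 10.3 on theca array 6, against 10.7, 10.6, 10.6 and 10.5 in tunica albuginea (-1.35 ± 0.22, adjusted p = 0.0001). COL6A1, a chain of the beaded type VI collagen, was lower in theca (-1.24 ± 0.11), as were its partners COL6A3 and COL6A2 (-0.96 and -0.65). COL14A1 and COL21A1, which belong to the same fibril-associated class as COL12A1, were higher in theca (1.92 ± 0.28 and 3.40 ± 0.20). COL21A1 ranged from 6.9 to 7.6 (median 7.35) in theca and was 4.1, 4.2, 3.9 and 3.4 in tunica albuginea. Of 23 chains in this list, 2 were higher and 8 lower (background 18.1%).

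Genes that fold, trim and cross-link collagen were more often higher in theca, with 13 of 29 higher and 5 lower. LOX, the lysyl oxidase that starts cross-links, ranged from 7.4 to 8.7 (median 8.5) in theca and was 6.8, 7.2, 7.2 and 6.0 in tunica albuginea (1.43 ± 0.27, adjusted p = 0.00048). LOX was at the same time higher in tunica albuginea than in stroma (1.23, adjusted p = 0.01). ADAMTS3, which removes procollagen ends, was higher in theca (1.38 ± 0.19). TLL2 was higher too (1.33 ± 0.21), but its mean was below 4.1 in both layers (4.08 and 2.75). PCOLCE2 and PCOLCE, enhancers of procollagen end removal, went the other way. PCOLCE2 was 4.8 to 5.3 in theca and 7.3, 7.0, 7.8 and 7.3 in tunica albuginea (-2.33 ± 0.20, adjusted p = 7.8e-08). PCOLCE differed by -1.17 ± 0.20. PLOD2, the lysyl hydroxylase of collagen ends, was also lower in theca (-1.45 ± 0.17). PCOLCE2 and PCOLCE were higher in tunica albuginea than in stroma (1.96 and 1.19), and PLOD2 did not pass there (0.26).

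The small leucine-rich proteoglycans, which coat collagen fibrils and set their width, split into 8 lower and 3 higher of 15. Of all clusters 18.1% were lower and 16.3% higher. PRELP, which ties collagen to basement membranes, ranged from 5.1 to 6.5 (median 5.6) in theca and was 9.8, 10.3, 9.9 and 10.2 in tunica albuginea (-4.37 ± 0.23, adjusted p = 2.4e-10). CHAD, chondroadherin, read 3.5 to 4.5 against 6.9, 7.3, 7.1 and 7.8 (-3.22 ± 0.23), and fibromodulin, FMOD, 7.7 to 8.2 against 9.4, 9.9, 9.7 and 10.0 (-1.83 ± 0.14). DCN, decorin, and LUM, lumican, were among the brightest genes of both layers and differed by only -0.53 each (adjusted p = 0.00067 and 0.0039). BGN, biglycan, did not pass (0.08). In the other direction, ASPN, asporin, ranged from 8.8 to 9.9 (median 9.35) in theca and was 4.7, 6.0, 5.5 and 5.5 in tunica albuginea (3.98 ± 0.23, adjusted p = 7.5e-10). OMD, osteomodulin, was 6.2 to 7.3 against 3.2, 2.9, 3.8 and 3.0 (3.44 ± 0.22), and OGN, osteoglycin, 9.0 to 9.9 against 7.5, 6.6, 6.3 and 6.3 (2.83 ± 0.27). OGN was also higher in tunica albuginea than in stroma (1.09, adjusted p = 0.02), and ASPN and OMD did not pass there (0.18 and 0.15).

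Microfibril genes were mostly lower in theca, with 10 of 17 lower and 4 higher. FBLN1, fibulin 1, ranged from 6.3 to 6.7 in theca and was 9.7, 10.1, 9.5 and 10.1 in tunica albuginea (-3.33 ± 0.14, adjusted p = 9.7e-12). MFAP4, a microfibril-associated protein, differed by -3.37 ± 0.26 and LTBP3, which holds latent TGF-beta in the matrix, by -2.57 ± 0.14. MFAP5 was lower in theca (-2.51 ± 0.61, adjusted p = 0.0039), but tunica albuginea array 1 stood at 4.5, within the theca range of 3.2 to 5.1, against 8.2, 7.6 and 7.4 on the others. FBLN5, which organises elastic fibres, was the opposite of FBLN1, with 8.7 to 9.2 in theca and 5.1, 5.4, 5.5 and 5.4 in tunica albuginea (3.60 ± 0.25, adjusted p = 6.7e-09). FBN1, fibrillin 1, was modestly higher in theca (0.85 ± 0.13). FBLN1 did not pass between tunica albuginea and laser-captured stroma (0.33, adjusted p = 0.22).

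Matricellular proteins, which tune adhesion rather than bear load, held some of the largest differences. TNC, tenascin C, ranged from 3.2 to 3.7 in theca and was 7.3, 9.0, 8.4 and 8.0 in tunica albuginea (-4.69 ± 0.42, adjusted p = 1.5e-07). TNC was also 2.92 higher in tunica albuginea than in stroma (adjusted p = 0.00026). THBS1, thrombospondin 1, an inhibitor of vessel growth that also activates TGF-beta, ranged from 6.5 to 7.5 (median 7.2) in theca and was 10.7, 10.7, 10.8 and 10.6 in tunica albuginea (-3.63 ± 0.28, adjusted p = 2.8e-08). It too was higher in tunica albuginea than in stroma (1.76, adjusted p = 0.00076). SMOC1 (-3.19 ± 0.23) and TNXB, tenascin X (-2.09 ± 0.30), were lower in theca. POSTN, periostin, and DPT, dermatopontin, were higher in theca (2.65 ± 0.41 and 3.15 ± 0.75), with wide spreads. POSTN stood at 5.7 on tunica albuginea array 3, level with the lowest theca value, and at 2.8 to 3.3 on the other 3. DPT read 6.3, 6.6, 5.7, 8.1, 6.7 and 9.2 on theca arrays 1 to 6 and 3.2, 5.0, 3.1 and 4.5 in tunica albuginea. Of 32 genes in the list, 4 were higher and 11 lower.

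Of 26 integrins and other matrix receptors 6 were higher in theca and 9 lower, and of 24 matrix proteases 5 were higher and 7 lower, beside 16.3% and 18.1% of all clusters. SDC4, syndecan 4, ranged from 3.4 to 4.4 in theca and from 7.0 to 7.4 in tunica albuginea (-3.23 ± 0.18, adjusted p = 6.1e-10). CD44, the hyaluronan receptor (-2.65 ± 0.29), and ITGB8, an integrin that releases TGF-beta (-2.62 ± 0.19), were lower, and ITGA4 was higher (1.85 ± 0.34). MMP14, a membrane-bound collagenase, was 6.1 to 6.7 in theca and 8.7, 8.8, 8.6 and 8.6 in tunica albuginea (-2.22 ± 0.15, adjusted p = 7.5e-09). ADAMTS9, which cuts versican, was higher in theca (2.69 ± 0.21).

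The genes with the largest differences toward tunica albuginea were not collagens. HOPX, a homeodomain cofactor, ranged from 3.2 to 5.1 (median 3.8) in theca and was 10.3, 10.1, 10.6 and 10.3 in tunica albuginea (-6.38 ± 0.38, adjusted p = 1.1e-09). SFRP4, a secreted WNT antagonist, was 3.4 to 4.1 in theca and 10.1, 9.7, 10.0 and 9.7 in tunica albuginea (-6.09 ± 0.19, adjusted p = 1.4e-13). HOPX was higher in tunica albuginea than in stroma (2.22, adjusted p = 0.0011), and SFRP4 did not pass there (0.60, adjusted p = 0.073). ADAM22, a receptor-like protein without protease activity, read 2.7 to 5.1 in theca and 8.2, 8.8, 9.2 and 9.6 in tunica albuginea (-4.73 ± 0.44, adjusted p = 2.8e-07), and it was 4.44 higher than in the laser-captured stroma (adjusted p = 8.4e-06). PENK, the enkephalin precursor, had a similar pattern, with 4.1 to 4.7 in theca and 8.2, 8.8, 8.4 and 8.2 in tunica albuginea (-3.98 ± 0.18, adjusted p = 3e-11) and a difference of 2.66 from stroma (adjusted p = 2.3e-07). STRA6, the retinol transporter, differed by -3.57 ± 0.31 from theca and by 2.80 from stroma. ATP8A1, a phospholipid flippase, differed by -3.59 ± 0.29 from theca and by 2.16 from stroma.

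Others were high in all laser-captured tissue. NUPR1, a stress-induced nuclear protein, was 4.3 to 5.3 in theca and 9.4, 9.3, 9.3 and 9.5 in tunica albuginea (-4.71 ± 0.17, adjusted p = 1.2e-12). Its tunica albuginea and stroma levels were close (-0.21, adjusted p = 0.57). FAIM2, an inhibitor of Fas-driven cell death (-5.06 ± 0.20), OPCML, a cell adhesion protein (-4.92 ± 0.31), MUSTN1 (-4.28 ± 0.30), MDGA2 (-4.22 ± 0.34) and the complement protease C1S (-4.16 ± 0.29) had the same pattern, with tunica albuginea minus stroma between -0.44 and 0.74 and no call. ITIH5, which binds hyaluronan (-4.57 ± 0.18), and HGF, the hepatocyte growth factor (-4.16 ± 0.31), were also higher in tunica albuginea than in stroma (1.35 and 1.46). RUNX1, a transcription factor, differed by -3.62 ± 0.26 from theca and did not pass against stroma (0.78).

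**Figure D4:**
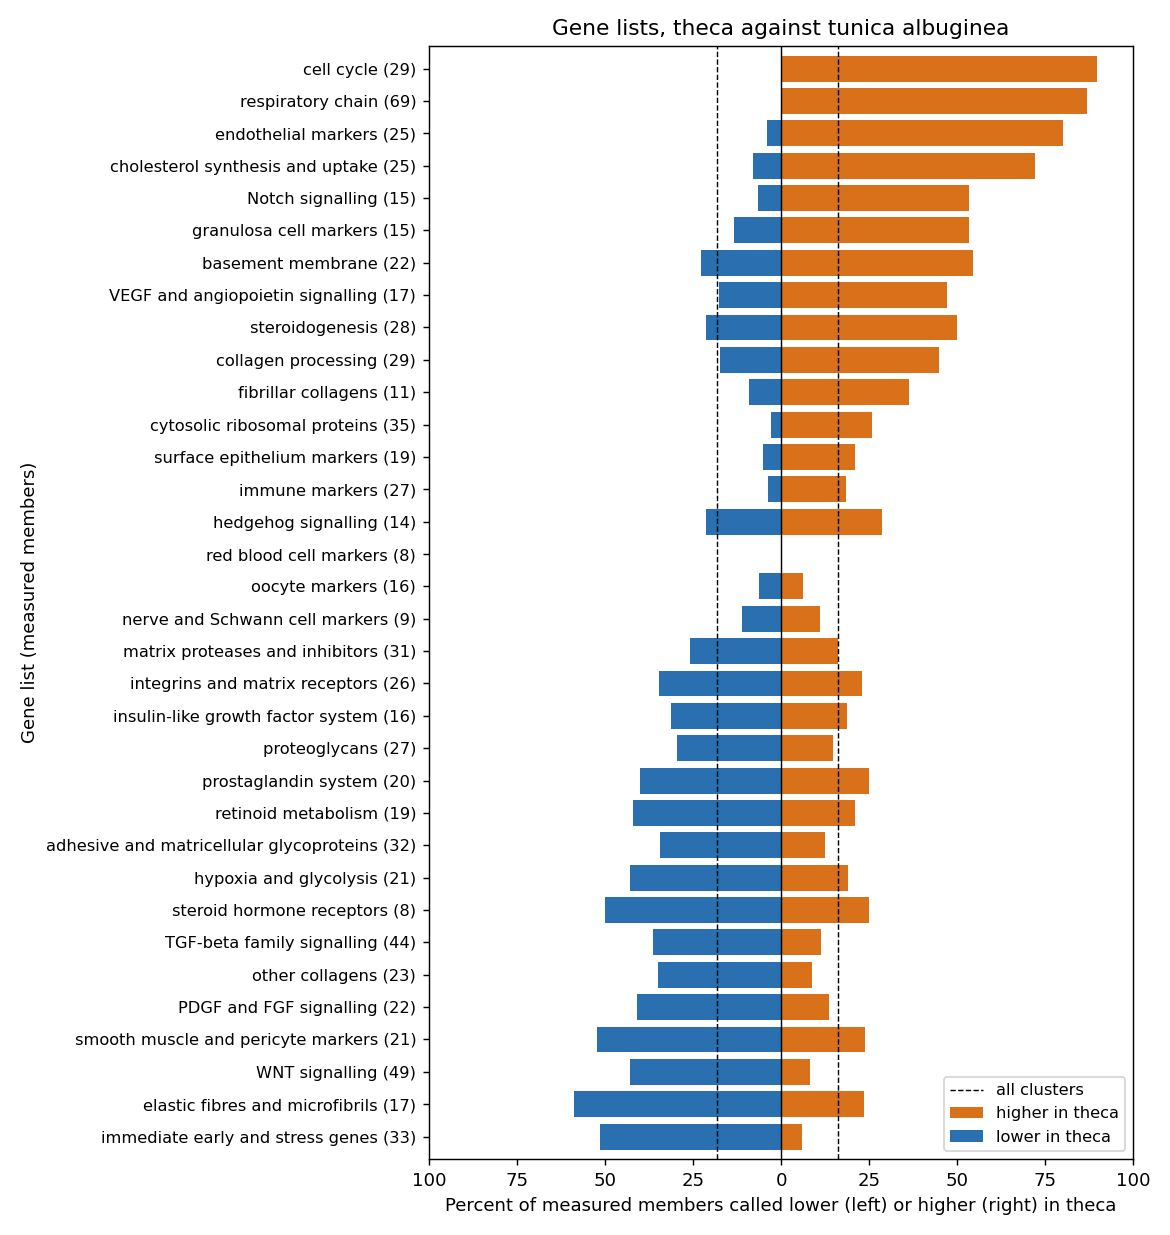
Percent of the measured members of each gene list that were higher (orange, to the right) or lower (blue, to the left) in theca than in tunica albuginea, with the number of measured members in brackets and dashed lines at the percent of all clusters called in each direction (16.3 and 18.1). Cell cycle and respiratory chain genes stand at the right end with no lower member, and microfibril and immediate early genes lean to the left.

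Several prostaglandin genes differed widely between the layers, in both directions. PTGES, which makes prostaglandin E2, ranged from 2.8 to 3.6 in theca and was 8.3, 8.2, 8.1 and 8.2 in tunica albuginea (-5.15 ± 0.31, adjusted p = 1.5e-09). It was also higher in tunica albuginea than in stroma (1.91, adjusted p = 0.00089). PTGDS, the prostaglandin D2 synthase (-2.83 ± 0.19), PTGS2, the inducible cyclooxygenase (-2.06 ± 0.42), and PTGER2, a receptor for prostaglandin E2 (-2.92 ± 0.23), were lower in theca as well. SLCO2A1, which imports prostaglandins, ranged from 7.1 to 8.7 (median 8.05) in theca and was 4.2, 3.8, 3.7 and 3.3 in tunica albuginea (4.22 ± 0.29, adjusted p = 8.5e-09). HPGD, the enzyme that inactivates prostaglandins, was 7.5 to 8.5 against 3.7, 4.8, 4.7 and 3.7 (3.69 ± 0.26, adjusted p = 1.1e-08). Of 10 synthesis genes 2 were higher and 6 lower, and of 10 receptor, transport and breakdown genes 3 were higher and 2 lower.

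WNT signalling was lower in theca for 21 of 49 genes and higher for 4. Among ligands, WNT5A ranged from 3.0 to 5.1 (median 3.6) in theca and was 7.9, 7.8, 7.8 and 7.5 in tunica albuginea (-4.00 ± 0.30, adjusted p = 1.8e-08), and it was higher in tunica albuginea than in stroma (1.28, adjusted p = 0.015). Its receptor ROR1 was lower in theca too (-2.03 ± 0.26). Of 9 targets and feedback genes 7 were lower and none higher. LEF1, a transcription factor of the pathway, was 5.2 to 5.6 in theca and 7.2, 7.3, 7.5 and 7.7 in tunica albuginea (-2.07 ± 0.13, adjusted p = 2e-09), and 1.02 higher in tunica albuginea than in stroma (adjusted p = 8.5e-05). The ligand WNT2B was higher in theca (1.36 ± 0.21).

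Of 14 hedgehog signalling genes 4 were higher in theca (28.6%, beside 16.3% of all clusters) and 3 lower (21.4%, beside 18.1%). The median difference of the list was -0.04. Granulosa cells are known from mice to send hedgehog ligands to theca cells, and PTCH1, HHIP and GLI1 are standard targets of the pathway. PTCH1, the receptor and target, ranged from 8.6 to 9.3 (median 9.2) in theca and was 4.9, 4.7, 5.2 and 5.2 in tunica albuginea (4.07 ± 0.22, adjusted p = 4.2e-10). HHIP, which binds and blocks the ligands, was 6.4 to 6.8 against 3.2, 3.9, 3.4 and 4.4 (2.91 ± 0.19, adjusted p = 3.4e-09), and GLI1 5.2 to 6.1 against 4.3, 4.1, 3.9 and 3.7 (1.52 ± 0.18, adjusted p = 5.4e-06). FOXF1, a transcription factor downstream of hedgehog, was higher by 1.48 ± 0.22. The ligands DHH, SHH and IHH were below 4.1 in both layers and did not pass. BOC, a co-receptor, was 3.7 to 4.0 in theca and 5.4, 6.0, 5.9 and 5.5 in tunica albuginea (-1.82 ± 0.15), and GLI2 and SUFU were lower by less (-0.68 and -0.65). PTCH1 was lower in tunica albuginea than in stroma (-0.90, adjusted p = 0.022), and HHIP and GLI1 did not pass there.

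TGF-beta family genes were more often lower in theca, with 16 of 44 lower and 5 higher. The ligand TGFB2 was 6.1 to 6.5 in theca and 7.8, 8.3, 8.5 and 8.9 in tunica albuginea (-2.06 ± 0.19, adjusted p = 3.3e-07). The targets PMEPA1 (-2.72 ± 0.17) and ID2 (-2.63 ± 0.25) and the pseudoreceptor BAMBI (-2.44 ± 0.19) were lower with it. The 5 higher genes included the inhibin and activin subunits and follistatin named with the granulosa markers, and BMP4 (0.95 ± 0.21). TGFB2, PMEPA1, ID2 and BAMBI did not pass between tunica albuginea and laser-captured stroma (adjusted p from 0.058 to 0.88).

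Growth factor and hormone receptors followed no single direction. ESR1, the oestrogen receptor alpha, ranged from 4.0 to 5.3 (median 4.2) in theca and was 6.2, 6.8, 6.2 and 6.6 in tunica albuginea (-2.03 ± 0.27, adjusted p = 1.4e-05). NR3C2, the mineralocorticoid receptor, differed by -1.65 ± 0.22 and ESR2, oestrogen receptor beta, by -1.06 ± 0.26, while PGR, the progesterone receptor, was higher in theca (0.78 ± 0.19). PDGFD was 5.0 to 5.7 in theca and 8.6, 8.7, 8.7 and 8.5 in tunica albuginea (-3.16 ± 0.15, adjusted p = 7.8e-11). IGFBP5, a binding protein of insulin-like growth factors, was 4.1 to 4.7 against 7.0, 8.1, 8.1 and 8.2 (-3.42 ± 0.28), and IGF2 was higher in theca (1.41 ± 0.24). In retinoid metabolism, the retinoic acid synthases ALDH1A1 (2.88 ± 0.29) and ALDH1A2 (2.90 ± 0.24) were higher in theca, the synthase ALDH1A3 (-1.33 ± 0.24) and the carrier RBP4 (-2.37 ± 0.20) were lower, and the receptors were lower for 4 of 5.

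Dividing-cell genes were higher in theca, by an amount that varied between follicles. Of 29 cell cycle genes 26 were higher in theca and none lower, with a median of 2.02. MKI67, a proliferation marker, read 6.5, 8.0, 7.7, 5.8, 8.1 and 6.0 on theca arrays 1 to 6 and 3.1 or 3.2 in all of tunica albuginea (3.87 ± 0.39, adjusted p = 7.5e-07). TPX2 (4.62 ± 0.35) and the spindle motor KIF11 (4.44 ± 0.37) were likewise highest on theca arrays 2, 3 and 5. The list mean was 7.29, 7.12 and 7.32 on theca arrays 2, 3 and 5, 6.17, 5.61 and 5.77 on arrays 1, 4 and 6, and 4.22 to 4.31 in tunica albuginea. Each follicle was above the whole range of tunica albuginea, whose arrays held pools of animals. Some cell cycle genes also separated tunica albuginea from stroma, among them PTTG1, securin (-3.0, adjusted p = 0.00013), and CKS2 (-1.77, adjusted p = 0.018). In theca PTTG1 and CKS2 were higher than in tunica albuginea by 3.74 ± 0.40 and 4.12 ± 0.43.

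Most genes of mitochondrial energy production were higher in theca. Of 69 subunits of the respiratory chain and of ATP synthase 60 were higher in theca and none was lower, and the median difference was 0.90. By complex, the counts were 31 of 34 genes of complex I, 16 of 20 of complexes II to IV and 13 of 15 of ATP synthase. NDUFA5, a complex I subunit, ranged from 8.5 to 9.2 (median 8.95) in theca and was 6.8, 7.2, 6.8 and 7.2 in tunica albuginea (1.90 ± 0.16, adjusted p = 6.5e-08), and ATP5MC1 differed by 2.44 ± 0.42. The list mean ranged from 8.14 to 8.48 in theca and from 7.27 to 7.43 in tunica albuginea. Cytosolic ribosomal protein genes were measured as a group that most cells express highly. Of 35 such genes 9 were higher (25.7%, beside 16.3% of all clusters) and 1 lower (2.86%, beside 18.1%). None was lower without theca array 1, 5 or 6 or tunica albuginea array 1, 2 or 4. The median of 0.09 for these ribosomal genes turned to -0.05 after cyclic loess and to 0 with arrays centred on the brighter clusters. Glycolysis and hypoxia genes leaned the other way, with 4 of 21 higher (19%, beside 16.3% of all clusters) and 9 lower (42.9%, beside 18.1%). SLC2A3, a glucose transporter, was 3.4 to 4.2 in theca and 7.6, 6.0, 7.9 and 7.3 in tunica albuginea (-3.23 ± 0.41). BNIP3 differed by -1.70 ± 0.23, and EPAS1, the hypoxia factor of vessels, by 2.39 ± 0.35.

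**Figure D5:**
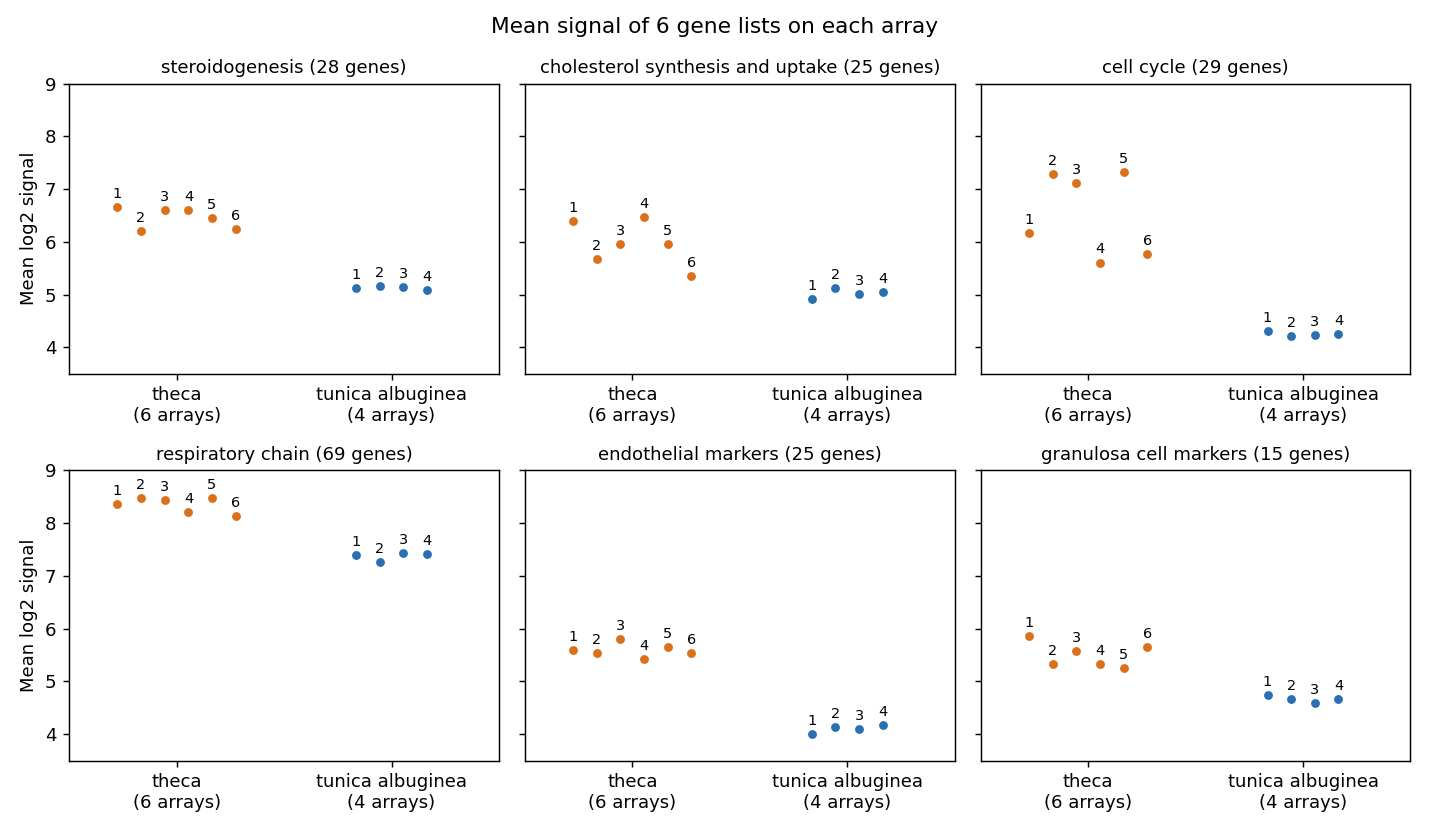
Mean log2 signal over the measured members of 6 gene lists on each of the 6 theca (orange) and 4 tunica albuginea (blue) arrays, numbered by replicate. The theca arrays spread over 1.71 log2 units for cell cycle genes and 1.11 for cholesterol genes, and the tunica albuginea arrays over at most 0.20 in every list shown. Theca arrays held single follicles and tunica albuginea arrays pools of animals, so these spreads cannot be compared.

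The theca arrays thus varied along more than one axis. Array 2 had a high cell cycle mean (7.29) and the lowest CYP17A1, arrays 1 and 4 had low to middle cell cycle means (6.17 and 5.61) with high CYP17A1 and the highest cholesterol means (6.39 and 6.47), and array 6 had a low cell cycle mean (5.77) and the lowest cholesterol mean (5.36). Array 6 also had the highest COL3A1, COL12A1 and DPT of the theca arrays and the lowest CYP11A1 and CXCL14. With 6 follicles from 6 animals, these orders are given as description, and follicle size, stage and animal were not separated.

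Immediate early and stress genes were lower in theca for 17 of 33 and higher for 2. Of 20 transcription factors in the list 12 were lower and none higher, and of 13 chaperones and other stress genes 5 were lower and 2 higher. EGR1, a rapid-response transcription factor, ranged from 6.1 to 7.3 (median 6.8) in theca and was 7.1, 9.3, 9.4 and 10.1 in tunica albuginea, where array 1 overlapped with theca (-2.16 ± 0.43, adjusted p = 0.00075). NR4A3 was 3.0 to 3.9 against 6.4, 5.7, 6.4 and 6.4 (-2.76 ± 0.21). HSPA8 and HSPA5, chaperones of the cytosol and the endoplasmic reticulum, were higher in theca (0.90 ± 0.11 and 1.05 ± 0.17). EGR1, NR4A1, NR4A2 and NR4A3 did not differ detectably between tunica albuginea and the other laser-captured tissue (-0.66 to 0.31, adjusted p from 0.46 to 0.98).

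Markers of further cell types gave few calls, some of them large. Of 27 immune markers 5 were higher in theca (18.5%, beside 16.3% of all clusters) and 1 lower (3.7%, beside 18.1%). In both layers 13 of the 27 had a mean below 4.1, and 10 of 15 leukocyte and macrophage markers were not called. Without tunica albuginea array 1 the higher and lower counts were 3 and 2, and without theca array 2 or 3 the lower count was also 2. CTSS, a protease of macrophages (1.19 ± 0.27), CD163 (1.14 ± 0.17) and the complement chain C1QB (0.96 ± 0.22) were higher, and PTPRC, present on all leukocytes, did not pass (-0.32 ± 0.31). KIT, a receptor of mast cells, oocytes and theca cells, was lower in theca (-1.59 ± 0.31). Of 19 surface epithelium markers 4 were higher in theca (21.1%, beside 16.3% of all clusters) and 1 lower (5.26%, beside 18.1%). The lower count was 2 without theca array 2, 3 or 5 or tunica albuginea array 1. In both layers 14 of the 19 had a mean below 4.1, and KRT18 and KRT19 did not pass. KRT18 was 6.6 on theca array 2 and 3.9 to 5.0 on the others, and its adjusted p of 0.051 fell to between 0.024 and 0.047 without any 1 of theca arrays 2, 3, 4 or 6. UPK1B, a uroplakin, was higher in theca (2.88 ± 0.39). CLDN1, a tight junction protein of epithelia, ranged from 6.0 to 7.2 (median 6.95) in theca and was 3.7, 4.9, 5.5 and 4.5 in tunica albuginea (2.08 ± 0.32, adjusted p = 6.1e-05). The mean log2 signal of the epithelium list ranged from 3.61 to 3.86 in theca and from 3.36 to 3.57 in tunica albuginea, so that the groups did not overlap, although both lay below 4.1. Oocyte markers (1 higher and 1 lower of 16), nerve and Schwann cell markers (1 and 1 of 9) and red blood cell markers (none of 8, or 1 higher without tunica albuginea array 4) gave list means of 3.07 to 4.20 on these arrays.

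A further group was the clusters annotated to microRNA genes. What form of RNA these probes read is not given in the sources used here. Of 528 such genes 34 were higher (6.44%) and 157 lower (29.7%), against 16.3% and 18.1% of all clusters. Most lay near the floor of the array, and among the 151 above 4.1 in either layer 21 were higher (13.9%) and 43 lower (28.5%). MIR21, abundant in fibrotic tissue, ranged from 3.3 to 4.9 in theca and was 7.6, 7.7, 9.1 and 8.2 in tunica albuginea (-4.17 ± 0.49, adjusted p = 4.6e-06). MIR29C, whose family represses collagen genes in mammals, was 2.2 to 2.9 in theca and 8.0, 6.3, 6.3 and 6.6 in tunica albuginea (-4.20 ± 0.39, adjusted p = 2.4e-07), and MIR29D of the same family differed by -2.31 ± 0.32. MIR99A (-3.72 ± 0.29) and MIRLET7C (-3.30 ± 0.22), which neighbour each other in the human genome, and MIR27B (-2.37 ± 0.50) were lower too. In the other direction stood MIR584-4 (2.06 ± 0.46), MIR2917 (1.84 ± 0.38), MIR181A-2 (1.60 ± 0.28), MIR2369 (1.60 ± 0.48), MIR2359 (1.58 ± 0.45) and MIR2404-2 (1.48 ± 0.16). The call of MIR2369 was lost without tunica albuginea array 2 (1.45, adjusted p = 0.05). None of the 6 lower microRNA genes passed between tunica albuginea and laser-captured stroma (adjusted p from 0.083 to 0.97), and the RNA kits differed between theca and all laser-captured tissue.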

How the data were processed

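RNA of 18 bovine ovary samples was hybridised to 1-colour arrays with biotin label. The authors deposited log2 values of 26773 transcript clusters, with RMA (robust multi-array average, which summarises probes into clusters) and Partek 6.5 named in the submitters' processing notes. The deposited values were rounded to 0.1, each array had a median of 4.1, and scanner intensities were not analysed here, so the number of arrays and the lack of detection calls limit the precision. Arrays were grouped by title, which matched the compartment label. The source label names thecal tissue for all 18 arrays and was not used.

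The log2 values were fitted in R 4.3.3 with limma 3.58.1 (lmFit and eBayes), with 1 mean per compartment over all 18 arrays, no covariate and no filter, two-sided. Adjusted p-values are Benjamini-Hochberg values over all 26773 clusters, with a threshold of 0.05. All differences and p-values are from this fit unless a setting is named. The fit was tested on simulated data. Theca replicates came from separate animals. Tunica albuginea replicates were pools that may share animals, so that p-values then measure only the spread between these samples.

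Of the clusters, 18457 had 1 gene symbol in the platform annotation, 688 had several and 7628 none. These gave 18010 genes, and the brightest of several clusters stood for each of 401 genes. Members and gene lists (34 lists, 799 of 889 genes measured) were chosen with earlier results of these data known. Named genes are the 15 with the largest difference in each direction whose arrays do not overlap, the 10 in each direction with both groups above 4.1, up to 4 per list and direction, a set of defining markers, and up to 6 microRNA genes per direction whose higher mean is above 4.1. Not every gene this rule gives is printed. BGN, COL6A2, COL6A3, CYB5A, CYB5R3, DHH, FDX1, FOXL2, GATA4, GATA6, IHH, INHBB, NR5A1, NR5A2, POR and SHH fall outside it and were chosen after their values were seen. The defining markers STAR and ACTA2 were not analysed here. No sequence is shown.

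Alternatives were theca and tunica albuginea arrays alone, each of these 10 arrays left out in turn, the replicate number as a block, no clusters from the dimmest 40%, cyclic loess, centring on the brighter clusters, trend and robust spread, array weights, and the mean of a gene's clusters. Replicate numbers were not treated as pairs in the main fit. Same-numbered theca and tunica albuginea arrays had deviations from their group means correlated at -0.0388 to -0.00118. All pairs of theca and tunica albuginea arrays gave -0.0985 to 0.0635. Because tunica albuginea arrays held pools, these values cannot show whether animals were shared.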

Additional observations from a re-analysis of the deposited data

Results flagged for a closer look

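Among the named genes, 28 of 398 groups of arrays tested held 1 array far from the rest of its own group, where chance gives about 1 in 20. Because values are rounded to 0.1, some of these gaps are a single rounding step.

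Theca array 6 accounted for 7 of them. It was high for COL12A1 (10.3, the other 5 follicles 8.9 to 9.2), COL3A1 (9.7, others 8.8 to 9.1) and GLI1 (6.1, others 5.2 to 5.5). It was low for CXCL14 (8.1, others 9.2 to 9.6), CYP11A1 (9.2, others 10.1 to 10.2), CYB5R3 (9.2, others 9.9 to 10.3) and NR4A2 (3.9, others 4.1 to 4.2). All 7 were called in theca against tunica albuginea with and without this array.

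Theca array 2 was low for ALDH1A1 (8.3, others 9.1 to 9.4), JAG1 (5.7, others 6.4 to 6.8), COL5A2 (6.0, others 6.5 to 6.7) and BOC (3.7, others 3.9 to 4.0). Theca array 3 was high for KRT19 (4.4, others 3.1 to 3.5) and NR4A1 (4.9, others 4.1 to 4.3). Array 4 was low for PLOD2 (4.6, others 5.4 to 5.6), array 5 for GATA4 (5.7, others 5.9 to 6.0) and array 1 for MIR29D (2.5, others 3.0 to 3.2).

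In tunica albuginea, array 1 was low for IGFBP5 (7.0, others 8.1 to 8.2), PTGER2 (4.8, others 5.9 to 6.0) and CXCL14 (3.2, others 3.3), and high for UPK1B (3.3, others 2.6) and ADAMDEC1 (3.8, others 3.1). Array 2 was low for NR4A3 (5.7, others 6.4) and COL24A1 (5.3, others 5.8 to 5.9) and high for DHH (3.4, others 3.3). Array 3 was high for COL6A1 (8.9, others 8.8) and VWF (3.5, others 3.3). Array 4 was low for GLI2 (5.5, others 6.1 to 6.2) and PCOLCE (6.2, others 6.5).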

How the results depend on the processing

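Of 3369 values of the 199 named genes over the alternatives, 3360 kept their direction and their side of the threshold and none reversed. VEGFA lost its call without tunica albuginea array 1 (-0.62, adjusted p = 0.05) and MIR2369 without array 2 (1.45, adjusted p = 0.05). KRT18 gained one in 7 settings: without the dimmest clusters, after cyclic loess, with array weights, and without theca array 2, 3, 4 or 6 (0.60 to 1.15, adjusted p 0.024 to 0.047). The count of called clusters was 9207, against 7712 with the replicate block and 7026 without the dimmest 40%, where fewer clusters were tested and the lower count fell from 4835 to 3071. Leaving out 1 array gave 8027 to 9056 calls, 3887 to 4288 higher and 4140 to 4773 lower, with 1683 to 1836 and 1081 to 1260 by at least 2-fold. Against the laser-captured stroma, tunica albuginea had 315 to 527 higher and 235 to 484 lower, and the cause of the low counts without arrays 1 and 3 was not tested. The replicate block gave 435 and 392 there, and kept the calls of all 199 named genes. At an unadjusted p under 0.05, 11650 clusters differed. Of 1224 list counts, 46 moved by over 1.5 times. With arrays centred on the brighter clusters 35.3% of calls were higher, and the list median of surface epithelium markers turned to -0.05, while cyclic loess turned those of nerve and red blood cell markers to 0.03 and 0.11. The comparison with laser-captured stroma needs the stroma arrays and was not run on theca and tunica albuginea alone. Clusters below 4.1 in 1 group give differences that the floor of the array may compress.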
